A study of Mus musculus with 614 samples.

Results

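The SiglecH-Ly6C- pre-DC of mouse bone marrow are progenitors of dendritic cells that were sorted as negative for SiglecH, a receptor of plasmacytoid dendritic cells (pDC), and for Ly6C, a surface protein of monocytes and many of their precursors. All 70 cells that the labels put in this gate were used, out of 614 single cells in 12 gates. Beside these markers, the gate took Lin-CD11c+MHCII-Flt3+ cells without CD172α or B220. It was set against 68 SiglecH-Ly6C+ and 70 SiglecH+Ly6C- marrow pre-DC, which share every other part of the gate, against 16 blood pre-DC sorted on the same markers with no split by SiglecH or Ly6C, and against the mean of all 11 other gates. The other gates are SiglecH+Ly6C+ pre-DC, pDC, CD115- CDP, cMoP, GMP, CLP, LMPP and pre-pro-B cells of the marrow. All cells came from untreated C57BL/6J mice of 7 to 10 weeks, and each cell was lysed and its cDNA amplified on a microfluidic chip. No label names an animal, so each gate is 1 sample, and every SD is over cells.

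Conventional dendritic cells (cDC) come in 2 branches. The cDC1 branch cross-presents antigen to CD8 T cells, depends on IRF8, BATF3 and ID2, and carries XCR1 and CLEC9A when mature. The cDC2 branch presents to CD4 T cells, uses IRF4, ZEB2 and, in part, KLF4, and carries CD172α (gene Sirpa) and, in many cells, CD209a. Pre-DC leave the marrow through the blood and finish their development in tissues.

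Of the 9 marker genes given for these cells, the median cell held 7, and 57 of 70 cells held at least 6, counting a gene as detected in a cell at 10 TPM or more. TPM, the unit of the deposited values, is a share of transcripts scaled by gene length. The set was uneven, with the regulators Id2 and Batf3 in most cells, the receptor Clec9a in fewer and Xcr1 rare. Id2, an inhibitor of E proteins, was detected in 64 cells, which is 91.4% (exact Clopper-Pearson 95% interval 82.3 to 96.8, counting error only). Cd74, the invariant chain of MHC class II, was in 97.1%, the phospholipase-like Plbd1 in 92.9%, Ifi205 in 87.1%, the acid amidase Naaa in 85.7%, Batf3 in 62.9% and the creatine kinase Ckb in 61.4%. Clec9a was in 47.1%, and Xcr1, the chemokine receptor that defines mature cDC1, in only 8.57% (3.21 to 17.7), or 6 cells. Cadm1 and Itgae, surface proteins of tissue cDC1, were detected in 0 of 70 cells. A limit of 3 cells in 70 puts the share of cells with detection at up to 4.29%, for counting error only, and sets no limit on cells whose transcript was missed. These markers were chosen with results of the same cells known, so their levels describe the gate and are not a test of it.

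**Figure D1:**
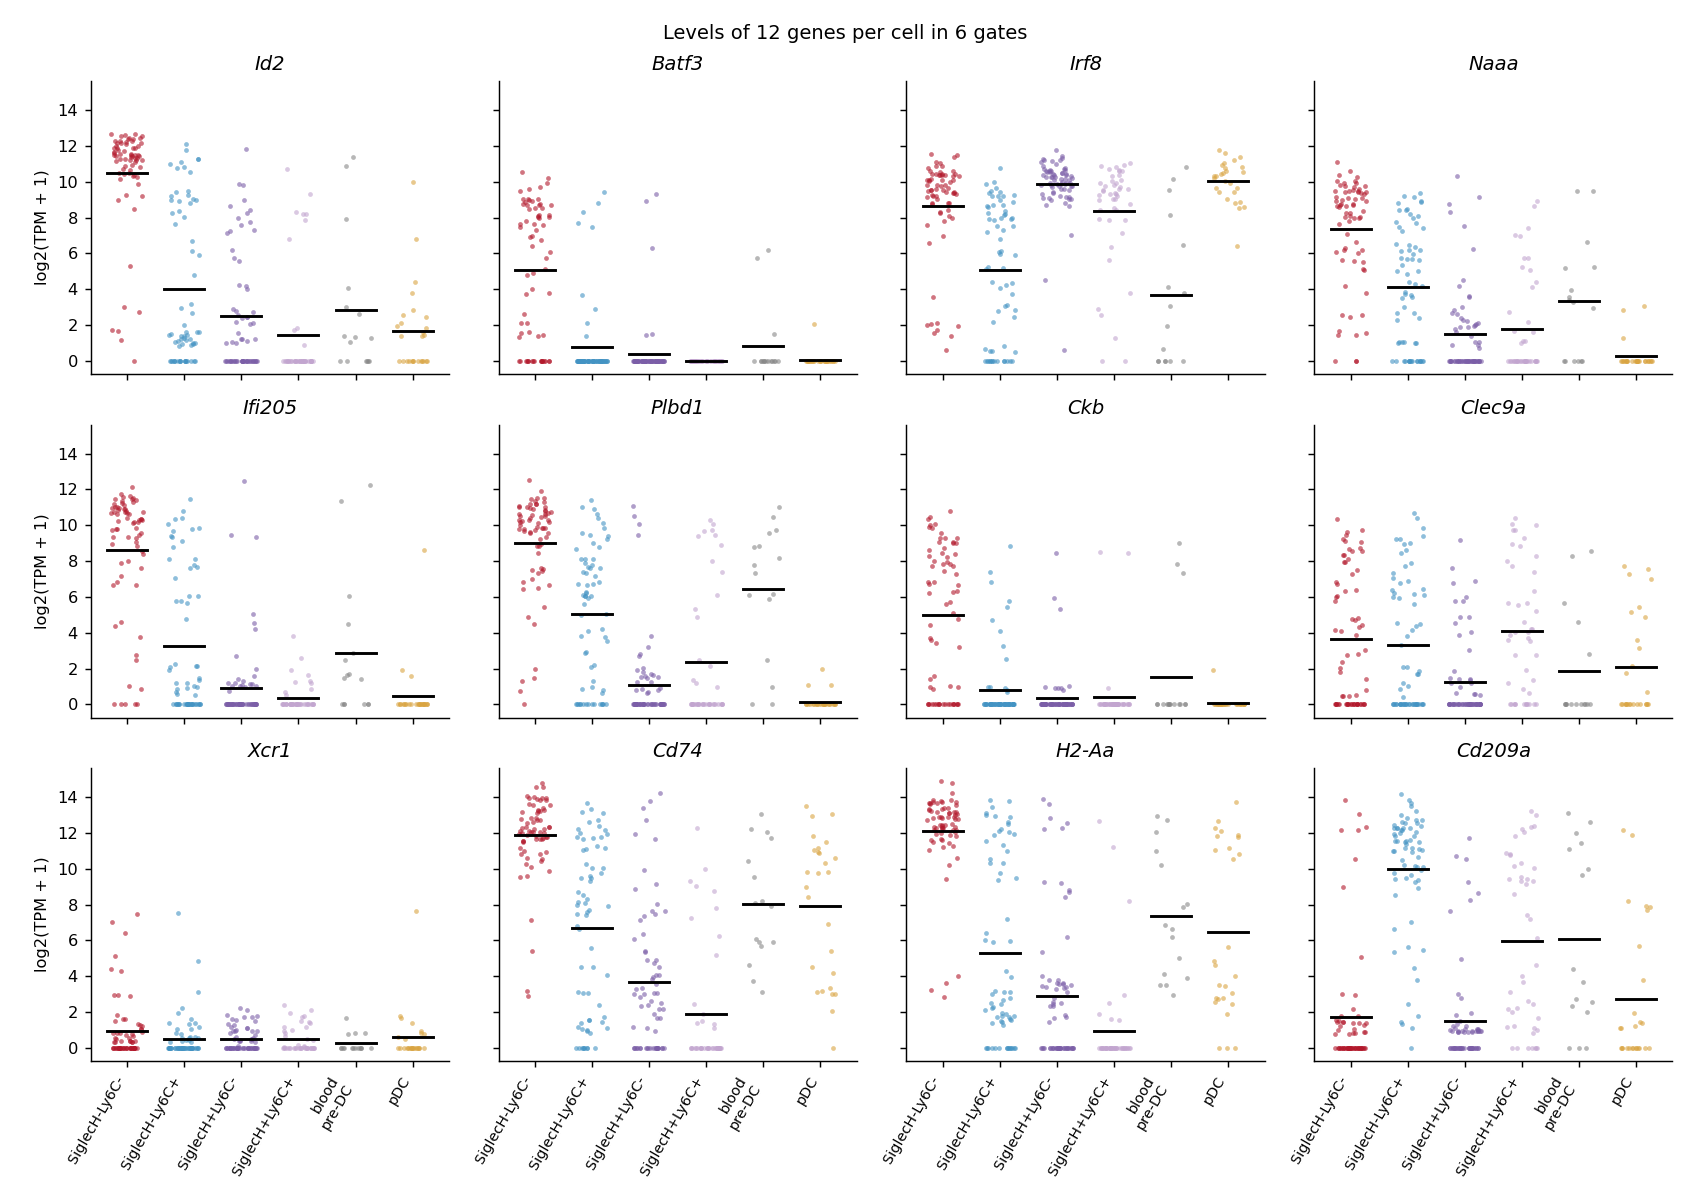
Level of 12 genes in single cells, as log2(TPM + 1), in 6 gates; each point is 1 cell and each black line the mean over cells. In SiglecH-Ly6C- pre-DC, Id2 averaged 10.46 and Batf3 5.08, while Xcr1 averaged 0.94 and Cd209a 1.73.

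The transcripts of the proteins used in the sort did not all follow the gate. Siglech was detected in 4 cells (5.71%), and Ly6c2 in 5 cells (7.14%). Sirpa was in 2 cells. Flt3 was in 48.6% and Itgax, which encodes CD11c, in 17.1%. The cells were sorted as MHCII-, yet H2-Aa was at 100 TPM or more in 66 cells and H2-Ab1 in 67, so transcript was high in most cells where the gate asked for no surface protein. Detection at 10 TPM says less for these genes, because both were above 0 in all 89 cells of the library run described next.

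By the numbers of their libraries, the 70 cells lie in 1 run together with 19 of the SiglecH+Ly6C- pre-DC. The 28 cells up to number 1000 and the 42 above it had the same mean cDC1 minus cDC2 level, 2.64 in each. The SiglecH-Ly6C+ and the blood pre-DC have runs of their own, and there the gate cannot be told apart from the run. Apart from the 19 cells, no cell of any other gate lies in the run of the SiglecH-Ly6C- cells. Differences from the mean of all other gates, and ranks among the gates, therefore mix gate and run as well. Genes at 1 TPM or more per cell, the only guide to depth that TPM leave, ran from 2886 to 6018 with a median of 4177. The median was 4222 in SiglecH-Ly6C+, 4983 in SiglecH+Ly6C- and 3649 in blood pre-DC.

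MHC class II genes were higher as a group in the SiglecH-Ly6C- cells, and the promoter sequences of 3 of them are shown because these genes were high together. Class II promoters are known to carry a Y box, bound by NF-Y, beside boxes bound by RFX and CREB, and to need the coactivator CIITA. The RefSeq windows (GRCm38.p6) run from 250 bases before to 50 after each gene's start. They are chr17:34287774-34288073 on the minus strand for H2-Aa, chr17:34305617-34305916 on the plus strand for H2-Eb1 and chr17:34152941-34153240 on the plus strand for H2-DMb1. Capitals mark the letters CCAAT or, on the other strand, ATTGG.
H2-Aa: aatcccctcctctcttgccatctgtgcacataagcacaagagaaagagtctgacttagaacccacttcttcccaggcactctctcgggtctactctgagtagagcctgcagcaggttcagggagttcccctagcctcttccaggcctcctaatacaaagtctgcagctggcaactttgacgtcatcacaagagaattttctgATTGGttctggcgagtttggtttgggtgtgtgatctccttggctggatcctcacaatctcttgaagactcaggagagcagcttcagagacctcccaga
H2-Eb1: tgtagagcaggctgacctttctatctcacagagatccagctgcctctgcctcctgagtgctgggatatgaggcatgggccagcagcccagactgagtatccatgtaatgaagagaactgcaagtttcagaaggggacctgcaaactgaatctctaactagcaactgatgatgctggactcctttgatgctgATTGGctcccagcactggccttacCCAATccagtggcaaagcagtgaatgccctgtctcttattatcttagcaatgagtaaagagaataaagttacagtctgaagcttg
H2-DMb1: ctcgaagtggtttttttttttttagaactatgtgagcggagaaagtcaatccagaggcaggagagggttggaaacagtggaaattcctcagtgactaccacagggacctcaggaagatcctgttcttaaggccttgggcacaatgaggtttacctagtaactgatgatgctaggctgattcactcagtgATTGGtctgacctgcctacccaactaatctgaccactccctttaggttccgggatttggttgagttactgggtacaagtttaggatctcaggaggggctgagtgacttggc
CCAAT, searched on both strands, was in 6 of the 7 class II promoters of the RefSeq table (85.7%) and in 37.9% of all 27025 promoters. H2-DMa was the member without it. Of 14 cDC1 promoters, 4 held CCAAT and 0 held TGANTCA, the AP-1 letters to which BATF factors bind with JUN, against 7.93% of all promoters. These matches are letters in a window and show nothing of binding.

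Against the mean of the other 11 gates, the class II list had a median difference of 3.52 on the log2(TPM + 1) scale, the unit of all differences here, and 10 of its 10 genes were higher. H2-Aa had a lowest value of 6.15, a median of 6822 and a highest of 30076 TPM over the 70 cells. Its mean level was 8.80 higher than in the other gates, that of H2-Ab1 8.60, that of H2-Eb1 7.85 and that of Cd74 7.50. H2-DMb1, part of the peptide editor DM, was 4.24 higher, Ciita 2.81 and H2-DMa 1.63. H2-Oa and H2-Ob, which restrain DM, differed by 0.72 and 0.22. The chains of the presenting molecules thus differed more than the accessory genes. The list's medians were 2.0 against SiglecH-Ly6C+, 3.85 against SiglecH+Ly6C- and 2.59 against blood pre-DC.

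A low level of these transcripts went with the run of library numbers. H2-Aa was at 0 in 0 of the 70 SiglecH-Ly6C- cells, in 0 of the 19 SiglecH+Ly6C- cells of the same run and in 33 of the 51 SiglecH+Ly6C- cells of other runs. The 19 cells of the same run had a median of 11.5 TPM. H2-Ab1 was at 10 TPM or more in all 70 SiglecH-Ly6C- cells, in all 19 of the same run, with a median of 24.5 TPM, and in 9.80% of the 51. In the 3 SiglecH-Ly6C- cells under 100 TPM it stood between 12.6 and 16.3. At 100 TPM the gates were far apart: H2-Aa reached it in 94.3% of SiglecH-Ly6C- cells, in 21.1% of the 19 and in 13.7% of the 51. Within the run the class II median difference was 3.49. The part of the run in the low values was not tested.

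Genes are called higher or lower here at a difference in mean level of 2 or more, with no test. Those detected in 20% of cells on either side were compared. Against the other 11 gates, 122 of 5730 genes compared were called higher (2.13%) and 127 lower (2.22%); the median over all genes compared was -0.28. Of these calls 49% were higher, against 72.6% when the log2 of each gate's mean TPM was used. Of the 19 cDC1 genes in the table, 11 could be compared and 9 of these were called higher, 0 lower. The median over all 19 was 1.57, with 15 higher and 3 lower. Of 14 shared cDC genes compared, 8 were called higher, and the median over all 20 was 1.12. The cDC2 list had a median of -0.17 over 20 genes, with 0 called higher and 3 lower. The 20 pDC genes had a median of -2.10, with 11 of 15 compared called lower. The cDC1 share called higher and the pDC share called lower lie above these backgrounds, but both lists were drawn up with earlier results of these cells known. A gene can also enter the comparison through 1 side alone. Batf3 was in 62.9% of SiglecH-Ly6C- cells and in at most 12.5% of the cells of any other gate. The list shares here and in the contrasts below are therefore descriptions and not support for a cell type.

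**Figure D2:**
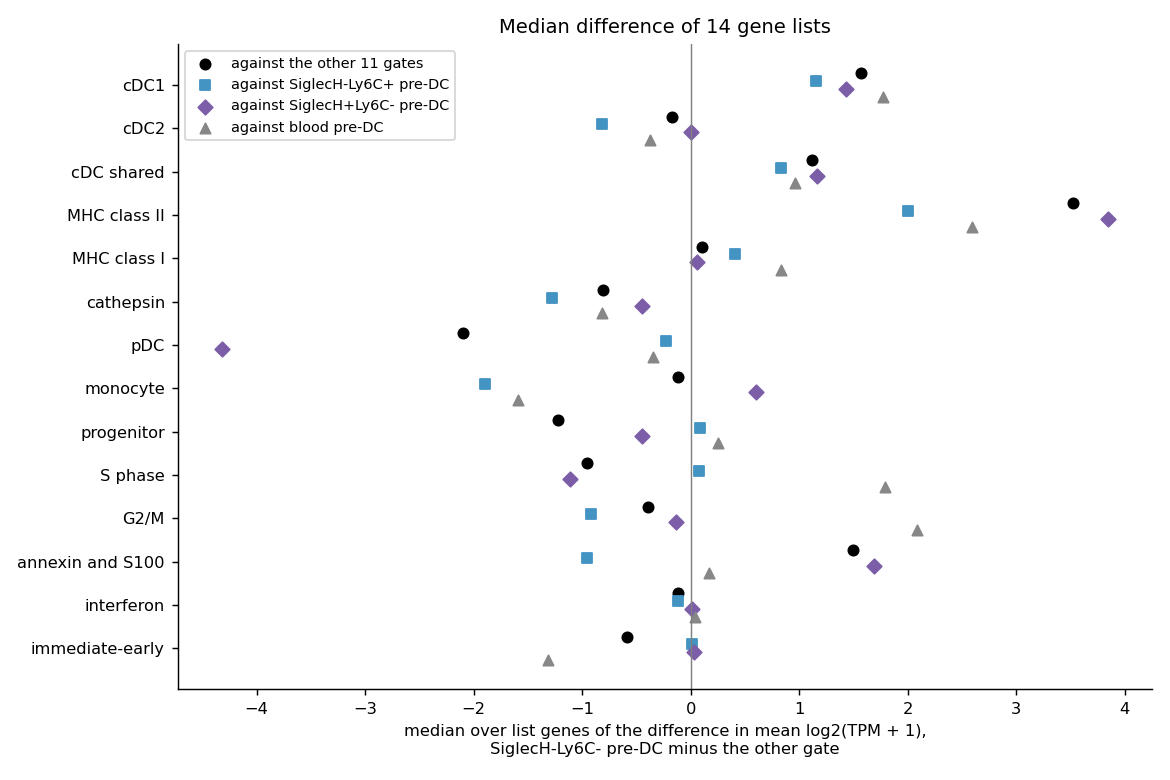
Median over the genes of 14 lists of the difference in mean log2(TPM + 1) between SiglecH-Ly6C- pre-DC and 4 other sets of cells (symbols). The MHC class II medians lie between 2.0 and 3.85 and the cDC1 medians between 1.16 and 1.77, all right of the zero line.

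Among the regulators of the branch, Id2 (chr12:25093799-25097140, minus strand, GRCm38) had a median of 2804 TPM and a highest value of 6511. Its mean level was 10.46 ± 2.95 (SD over 70 cells), against 4.03 ± 4.29 in SiglecH-Ly6C+, 2.49 ± 3.31 in SiglecH+Ly6C- and 2.81 ± 3.86 in blood pre-DC. Against the other gates the difference was 8.42. Only 6 of the 70 cells lay under 10 TPM.

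Batf3 (chr1:191097847-191108945, plus strand), the AP-1 factor that cDC1 need, had a median of 94.3 TPM and a highest value of 1512, with 18 cells at 0. It was detected in 62.9% of SiglecH-Ly6C-, 8.82% of SiglecH-Ly6C+, 4.29% of SiglecH+Ly6C- and 12.5% of blood pre-DC. Id2 and Irf8 were detected in all 44 cells with Batf3. Id2 and Batf3 together marked 44 of 70 SiglecH-Ly6C- cells, 5 of 68 SiglecH-Ly6C+, 2 of 70 SiglecH+Ly6C- and 1 of 16 blood pre-DC. Outside the pre-DC they were found together in 2 of 66 cMoP and 1 of 48 CLP.

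Irf8, the factor that cDC1, pDC and monocyte precursors all use, did not set the gate apart in 1 direction. Its mean level was 8.66 ± 2.82, against 5.10 ± 3.69 in SiglecH-Ly6C+, 9.85 ± 1.53 in SiglecH+Ly6C- and 3.67 ± 4.07 in blood pre-DC. The gate had rank 4 of 12 for mean Irf8, whereas it had the highest mean for Id2, Batf3, Cbfa2t3, Notch2, Bcl6 and Zbtb46. Cbfa2t3, a transcriptional corepressor, was detected in 94.3% of the cells, and Notch2, a receptor that shapes cDC in the spleen, in 97.1%. Zbtb46, a factor of committed cDC, was in 20% and Bcl6 in the same share. Nfil3, a factor that cDC1 development is known to use, was detected in 1 cell, and the gate had rank 10 of 12 for it.

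Several factors of the other branches were low. Tcf4, the E protein that pDC require, averaged 2.34, against 6.00 over the other gates, and was detected in 21 of the 70 cells. Runx2 (-3.72) and Zeb2 (-3.25) were lower too, and for Zeb2, Runx2 and Tcf4 the gate had the lowest mean of 12. Irf4 was detected in 2 cells, and the gate had rank 3 of 12 for its mean, 0.28 against 0.34 over the other gates. Id3, a relative of Id2, was at 0 in all 70. Klf4, by contrast, was in 54.3% of the cells.

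The remaining cDC1 genes divided into a common and a rare set. The common ones were Cd24a, a surface glycoprotein, in 88.6% of cells, Wdfy4, which cross-presentation requires, in 80.0%, and the thioesterase Ppt1 in 71.4%. Tlr3, the sensor of double-stranded RNA, was in 37.1%, and Gcsam and Btla, an inhibitory receptor, were each in 30%. Snx22, Sept3 and Clnk were in 14.3%, 12.9% and 4.29%. Ifi205 (mean level 8.64) and Mnda (5.64) belong to 1 cluster of near-identical interferon-inducible genes, so reads may have been divided between them and each level alone is uncertain.

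Clec9a differed by only 0.35 between SiglecH-Ly6C- and SiglecH-Ly6C+ cells. It was detected in 47.1% of SiglecH-Ly6C- (35.1 to 59.4), 42.6% of SiglecH-Ly6C+ (30.7 to 55.2), 17.1% of SiglecH+Ly6C- and 25% of blood pre-DC. The SiglecH-Ly6C- mean was 3.64, against 4.09 in SiglecH+Ly6C+ pre-DC, the highest of the 12 gates. Among the 33 cells with Clec9a, 24 also held Batf3, and 17 held Tlr3.

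The 6 cells with Xcr1 held 178, 128, 82.8, 34.6, 20.2 and 18.7 TPM. All 6 had Id2 at 1676 TPM or more, and Batf3 was detected in 4. Their cDC1 minus cDC2 levels, described next, lay between 2.96 and 4.84, inside the range of the other cells. The 2 with the most Xcr1 had Batf3 at 3.34 and 1.67 TPM, the only Xcr1 cells without detected Batf3.

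For each cell the mean log2(TPM + 1) over the 19 cDC1 and over the 20 cDC2 genes was taken. In the 70 SiglecH-Ly6C- cells the cDC1 level averaged 3.41 ± 1.12 and the cDC2 level 0.77 ± 0.64. Their difference averaged 2.64 ± 1.61, with a lowest value of -2.09, a median of 3.02 and a highest of 4.91. The quartiles were 2.39 and 3.60. The median difference was -0.81 in SiglecH-Ly6C+, 0.30 in SiglecH+Ly6C- and -0.73 in blood pre-DC. Among the SiglecH-Ly6C- cells, 55 lay above the highest of the 68 SiglecH-Ly6C+ cells and 28 above the highest of the 70 SiglecH+Ly6C- cells.

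The spread had 1 main body and a thin low end. The median cell held 8 detected cDC1 genes (0 to 12) and 1 cDC2 gene (0 to 6). More cDC1 than cDC2 genes were counted in 61 cells, equal numbers in 1 and fewer in 8. The difference in level was below 0 in 8 cells and within 0.5 of 0 in 3. Across the 70 cells the 2 levels gave Pearson's r of -0.64 and Spearman's rho of -0.40, as a description. Without the 8 cells that held Cd209a, Pearson's r was -0.21. Cd209a belongs to the cDC2 list, so these cells were picked in part by their cDC2 level. The part of Cd209a itself in this change was not tested. The difference gave rho of 0.33 with genes per cell.

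**Figure D3:**
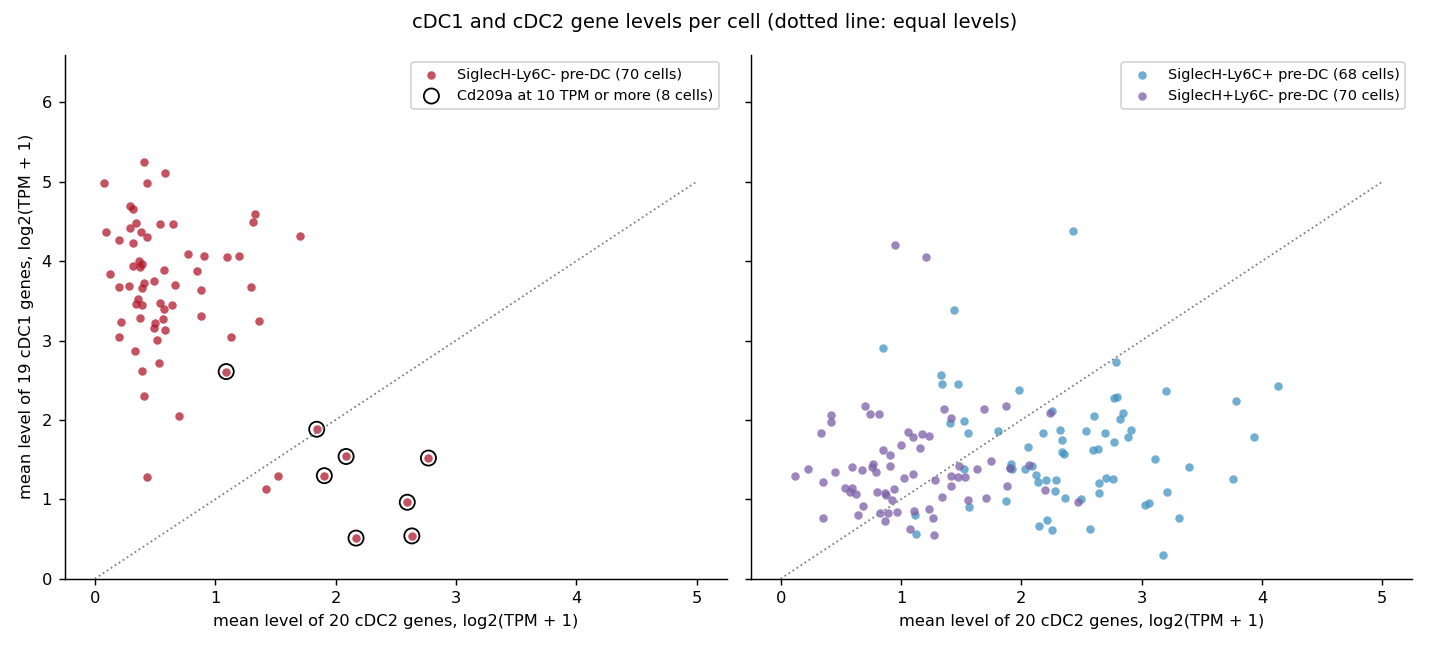
Mean level of 19 cDC1 genes (y axis) against that of 20 cDC2 genes (x axis), both as log2(TPM + 1); each point is 1 cell, with SiglecH-Ly6C- pre-DC on the left and 2 other pre-DC gates on the right. On the left, 62 of 70 cells lie above the dotted line of equal levels, and 6 of the 8 circled cells with Cd209a lie below it. Cd209a is itself a member of the cDC2 list.

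The cells at the low end were looked at 1 by 1, chosen after their values were seen. Cd209a (chr8:3743397-3748984, minus strand), a C-type lectin of the DC-SIGN family, was detected in 8 cells, 11.4% (5.07 to 21.3), against 91.2% of SiglecH-Ly6C+, 11.4% of SiglecH+Ly6C- and 56.2% of blood pre-DC. Its values in those 8 were 14429, 8596, 5216, 4650, 4620, 1470, 505.74 and 32.2 TPM, in cells 29, 4, 58, 47, 16, 11, 2 and 69. The median of the SiglecH-Ly6C+ cells was 2302 TPM. Among the 8, cells 47, 2, 4, 29, 16 and 58 had the 6 lowest differences of the gate, from -2.09 to -0.55. Cd209a counts in the cDC2 level, so their place was set in part by Cd209a itself. Cell 69 stood at 0.04 and cell 11 at 1.52.

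In these 8 cells the cDC1 factors were mostly low and class II high. Irf8 was under 10 TPM in 7 of the 8, and Batf3 in the same 7, the exception being cell 11 with 650 TPM of Irf8, 980 of Batf3 and 3393 of Id2. Clec9a was in 0 of the 8, and Id2 in 5. H2-Aa was at 10421 TPM or more in each. Ifitm3, an antiviral membrane protein, was detected in all 8, against 48.6% of the whole gate. Clec10a, another lectin of cDC2, was at 4121, 2330, 789.01 and 144 TPM in cells 29, 47, 58 and 2. Irf4 was at 717 TPM in cell 4 and at 65.3 in cell 2. Sirpa, in neither branch list, was at 1383 TPM in cell 16 and 570 in cell 29. Other genes of the cDC2 list were uneven. Csf1r was under 10 TPM in all 8, as was Zbtb46 of the shared cDC list. Cx3cr1 reached 10 TPM in cell 58 alone, Itgam in cells 16 and 29, and Tmem176b in cells 4, 29 and 47. Clec4a2 reached it in cells 2, 16, 29, 47 and 69. Of the monocyte list, Lyz2 was detected in 6 of the 8, against 57.1% of the whole gate. Ccr2 was in all but cell 58, against 92.9% of the whole gate.

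Cells 37, 66 and 39 stood apart as well. Cell 37 held the pDC genes Siglech at 1667, Ly6d at 8862 and Tcf4 at 779 TPM, with Id2 at 1.22, and also haemoglobin transcript (Hba-a1 537 TPM), red cell RNA seen in no other cell of the gate at 100 TPM. Cells 66 and 39 had H2-Aa at 11.2 and 6.15 TPM, Id2 at 2.22 and 0, and Cst3, a protease inhibitor abundant in DC, at 28.4 and 34.5, against a gate median of 14126. Cell 39 also held the pDC genes Ly6d at 550 and Tcf4 at 218 TPM. Cell 9 had H2-Aa at 8.36 and Ly6d at 276 TPM, but Id2 at 1305 and Cst3 at 15470. Cell 48 held Siglech at 389 TPM but also Id2 at 2869 and Batf3 at 770. Leaving out cells 37 and 48, the 2 with Siglech at 100 TPM or more, moved no list median by more than its spread over cells.

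**Figure D4:**
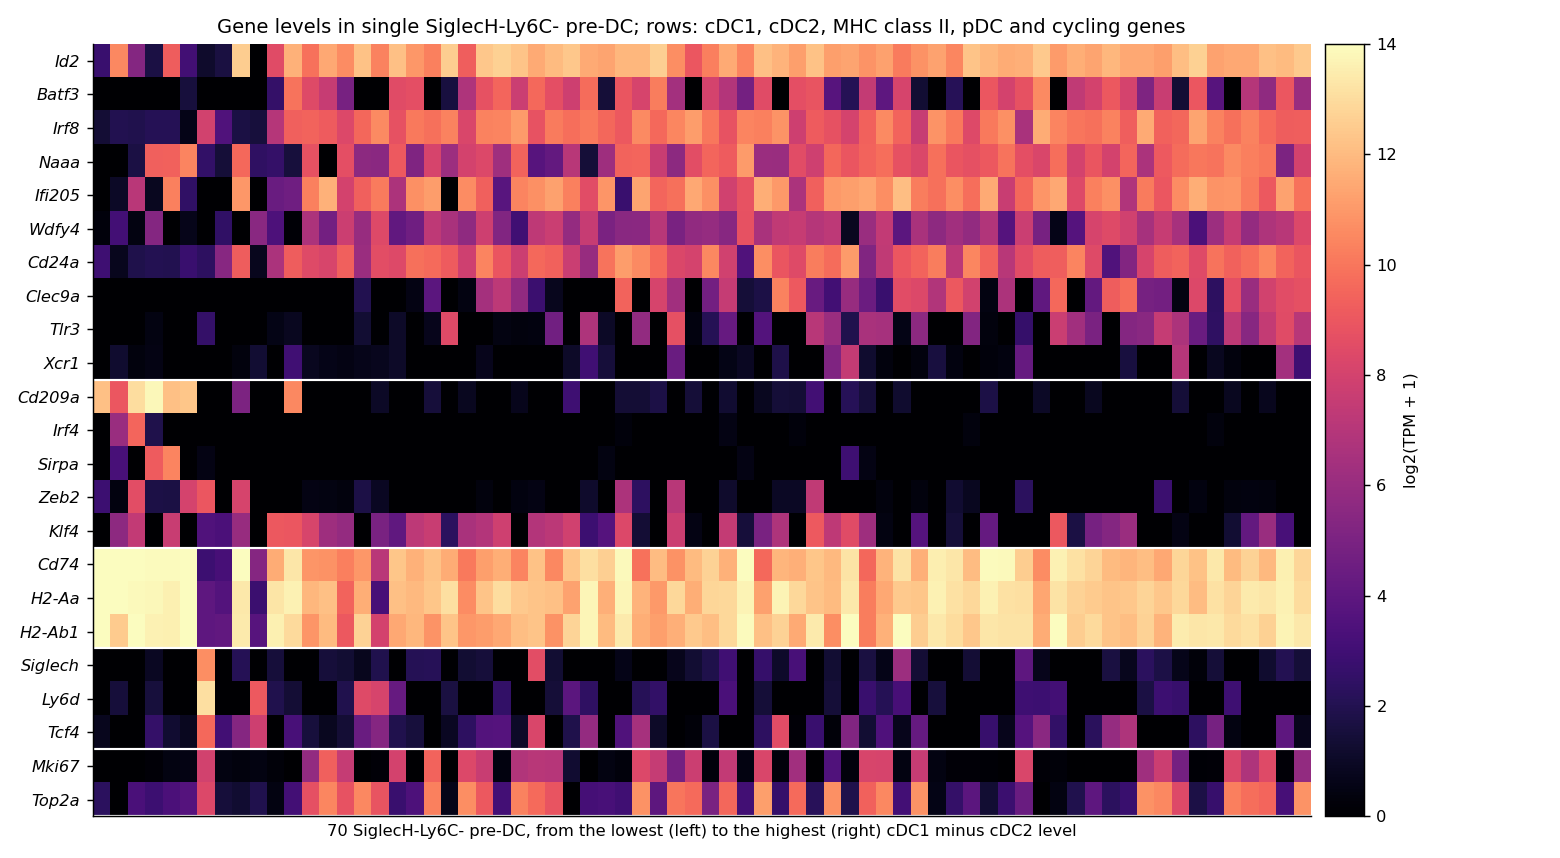
Level of 23 genes, as log2(TPM + 1) in colour, in the 70 SiglecH-Ly6C- cells ordered by the cDC1 minus cDC2 level from -2.09 (left) to 4.91 (right); white lines part cDC1, cDC2, MHC class II, pDC and cycling genes. Id2, of the shared cDC list, is drawn with the cDC1 genes, and Sirpa, in neither branch list, with the cDC2 genes. Cd209a is bright at the left edge, where Irf8 and Batf3 are dark. These genes count in the level that orders the cells, so the pattern follows in part from the order.

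Along the same order, 19 of 2784 genes ranked had a Spearman's rho of 0.4 or more and 2 of -0.4 or less. Of those outside both lists, Pkib, an inhibitor of protein kinase A, had 0.49, Gpn1 0.48, the ubiquitin-conjugating Ube2l3 0.48 and Cst3 0.46. Sod1, the cytosolic superoxide dismutase, had 0.45, Gatm 0.44, Cbfb 0.42 and Plbd1 0.41. Prtg had -0.48. Within the cDC1 list, Clec9a (0.67) and Tlr3 (0.55) followed the order most closely, as members of the list must in part, while Xcr1 had 0.05. Genes per cell moved along it as well (0.33), and its part was not tested.

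The first principal component held 8.09% of the variance of 1000 variable genes and followed the G2/M genes (rho 0.79), the S phase genes (0.73) and genes per cell (0.68). It gave 0.35 with the cDC1 minus cDC2 level. At least 5 S phase genes were detected in 29 cells (41.4%) and at least 5 G2/M genes in 24 (34.3%). Either applied to 36 cells, 51.4% (39.2 to 63.6), against 60.3% of SiglecH-Ly6C+, 75.7% of SiglecH+Ly6C- and 0 of 16 blood pre-DC, where the interval reaches 20.6%. None of the 8 cells with Cd209a was among the 36: they held at most 2 S phase and 1 G2/M genes. All 8 were below the gate's median in genes per cell, with 2886 to 4079, and the part of depth was not tested.

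**Figure D5:**
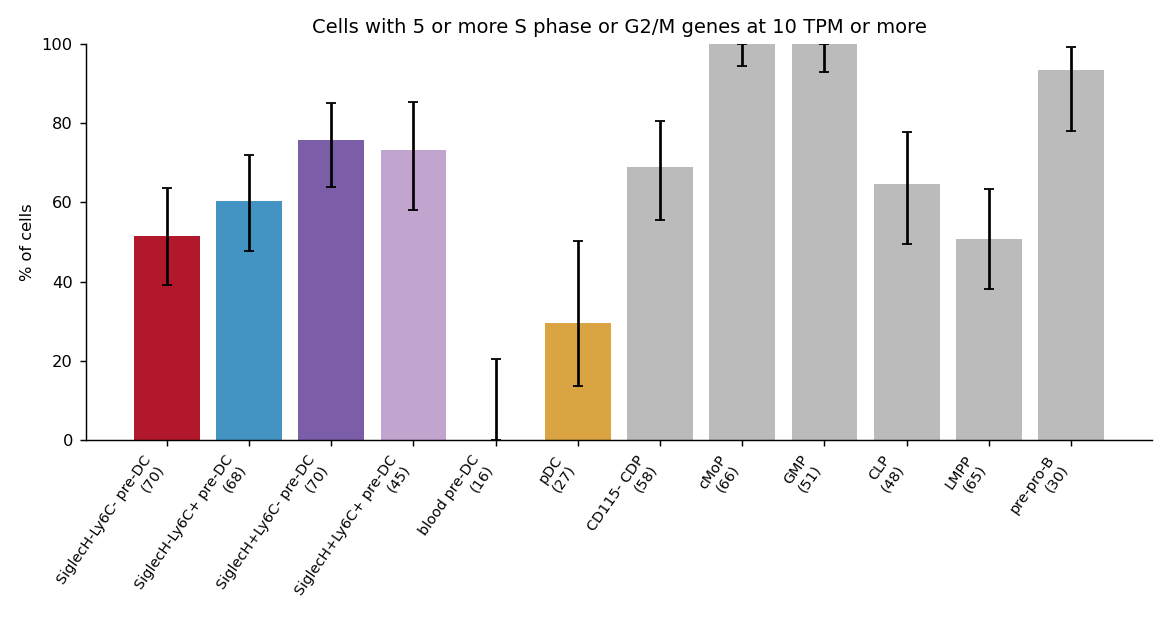
Percent of cells in each of the 12 gates with 5 or more S phase or 5 or more G2/M genes detected (y axis); error bars are exact Clopper-Pearson 95% intervals and numbers in brackets are cells. SiglecH-Ly6C- pre-DC stand at 51.4% and blood pre-DC at 0%.

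Set against SiglecH-Ly6C+ pre-DC, which differ by 1 surface protein of the gate, 72 of 5003 genes were called higher (1.44%) and 102 lower (2.04%). Of these calls 41.4% were higher, against 56.04% on the log2 of mean TPM. Of 11 cDC1 genes compared, 9 were called higher, with a median of 1.16 over all 19, and of 11 cDC2 genes compared 7 were called lower, with a median of -0.81 over all 20. Id2 was 6.43, Ifi205 5.39, Cd74 5.18, Cd24a 4.43, Batf3 4.32, Ckb 4.22, Plbd1 3.98 and Sod1 3.72 higher. Cd209a was lower (-8.25), with a mean of 1.73 ± 3.56 against 9.97 ± 3.49. Also lower were Cd7 (-6.48), Ifitm2 (-5.73), Ifitm3 (-5.44), the calcium-binding S100a4 (-5.13), Zeb2 (-4.88), the coagulation factor F13a1 (-4.41) and Runx2 (-4.11). Ifitm2 and Ifitm3 are near-identical copies, so their separate levels are uncertain.

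Monocyte genes were lower than in the Ly6C+ cells, with a median of -1.90 and 6 of 10 compared called lower. Among cDC2 genes that monocytes also use, Csf1r, the receptor for M-CSF (-2.60), Cx3cr1 (-4.04) and Klf4 (-2.51) were lower, and Fcgr3 was listed at 0 in all 70 cells. Ccr2 (-0.76) and the galectin Lgals3 (0.28) differed little. The receptor Kit was 3.03 and Notch2 2.28 higher. S100a6 (-4.02) was lower, and 9 of the 12 annexin and S100 genes had lower means, with a median of -0.96.

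Against SiglecH+Ly6C- pre-DC, of 5671 genes compared 87 were called higher (1.53%) and 4.13% lower, with a median of -0.43 over all genes compared. All 20 pDC genes had lower means (median -4.32), and 14 of the 17 compared were called lower. Lower were Ly6d (-9.33), Cd7 (-7.13), Tcf4 (-6.95), Cox6a2 (-6.67), Runx2 (-6.41), the syndecan Sdc4 (-6.32), the transferrin receptor Tfrc (-6.17) and Tex2 (-5.86). Bst2 (-5.23) and Spib (-4.14), a factor of pDC, were lower too. Higher were Cd74 (8.19), Id2 (7.97), Plbd1 (7.94), Ifi205 (7.71), Anxa1 (6.56), Lgals3 (6.45), Aif1 (6.24) and Ccr2 (6.14). The annexin and S100 list had a median of 1.69, with 11 of 12 genes higher.

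The 19 SiglecH+Ly6C- cells of the same run of library numbers gave 89 of 5917 genes called higher (1.5%) and 345 lower (5.83%). The pDC median was then -4.68 and the cDC1 median 1.35. Within the run Id2 was 7.47, Plbd1 6.76, Cd74 6.73, Ifi205 6.51, Lgals3 6.02, Aif1 5.53, Anxa2 5.46 and Naaa 5.27 higher. Lower were Ly6d (-8.02), Cd7 (-7.32), Tcf4 (-6.09), Tex2 (-5.84), Sdc4 (-5.61), Cd300c (-5.56), Runx2 (-5.44) and Slpi (-5.42). The leading genes thus stood apart within the run as well, but low values of some of them also went with the run. Id2 was at 0 in 2 of the 19 cells and in 31 of the 51 SiglecH+Ly6C- cells of other runs. The same counts were 3 and 42 for Plbd1, 2 and 47 for Ifi205, and 0 and 23 for Cd74. The part of the run in these values was not tested. The difference within the run was 4.12 for Batf3 and -1.36 for Irf8.

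All 16 S phase genes had lower means than in SiglecH+Ly6C- cells, with a median of -1.11, but only 3 of the 15 compared were called lower. Of all genes compared, 4086 of 5671 had lower means, and genes per cell were lower too. The cytokine receptors went both ways: Il7r, the receptor of early lymphoid cells, was lower (-3.81), while Kit was 2.55 and Ifngr1 2.54 higher. Spi1, which encodes the myeloid factor PU.1, was 3.12 higher and Bcl11a, a factor of lymphoid and pDC progenitors, lower (-3.51). The cathepsins Ctsl (-4.17), Ctsb (-3.83) and Ctsd (-3.46), lysosomal proteases, were lower.

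Against the 16 blood pre-DC, 470 of 4937 genes were called higher (9.52%) and 156 lower (3.16%), with a median of 0.55 over all genes compared. Of these calls 75.1% were higher, against 62.9% with size factors and 57.6% when cells under 2000 genes, all outside the gate, were left out, where the median over all genes was 0.07. Mitochondrial transcripts took up to 8.68% of a SiglecH-Ly6C- cell's TPM, against up to 74.0% in blood pre-DC. Their part in this contrast was not tested. The cDC1 median was 1.77, with 9 of 11 compared called higher, and the cDC2 median -0.38, with 6 of 10 called lower. All 16 S phase genes had higher means (median 1.79), with 7 of 11 compared called higher, and so had all 17 G2/M genes (median 2.08), with 9 of 12 called. Of all genes compared, 3356 of 4937 had higher means.

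By gene, Id2 was 7.65, the tubulin regulator Stmn1 6.79, Ifi205 5.78, Cd24a 5.57, Aif1 5.32, Irf8 5.00, Anxa6 4.60 and the chromatin protein Hmgn2 4.59 higher than in blood. Lower were Ifitm2 (-6.80), the NADPH oxidase subunit Cybb (-5.66), Ifitm3 (-5.65), Wfdc17 (-5.01), lysozyme Lyz2 (-4.90), the chemokine Ccl6 (-4.82) and Ifi27l2a (-4.72). Fcgr3, an IgG receptor, was listed at 0 in all 70 cells and averaged 6.36 in blood pre-DC. Ccr7, the receptor for entry into lymph nodes, was at 0 in all 70 cells, and Cxcr4, which holds cells in the marrow, was in 15.7%. Ccr2 was in 92.9% of the cells and the integrin Itgb7 in 74.3%. The immediate-early genes had a median of -1.32, with Atf3 (-3.86) and Zfp36 (-3.85) lower.

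Against all other gates, the naming rule also took as higher Aif1 (5.84), an actin-bundling protein of myeloid cells, Lgals3 (5.41), the surface receptor Slamf7 (4.84), Ccr2 (4.62), Ckb (4.55) and Mnda (4.53). Lower were Cox6a2 (-4.16), Tsc22d1 (-3.98), Ly6d (-3.93), myeloperoxidase Mpo (-3.81), Cd69 (-3.61) and Ifitm2 (-3.55). Early progenitor genes had a median of -1.22, and yet Kit was detected in 41.4% of the cells. MHC class I genes had a median of 0.10, with 0 of 14 called. The interferon-stimulated genes had a median of -0.11. Tlr3 was the pattern receptor called higher (2.15), and Clec12a the one called lower (-2.18).

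Markers of granulocytes, lymphocytes, macrophages, platelets and red cells were sparse, while some of those of pDC, progenitors and monocytes were more common. Detection in 20% of cells was reached by 6 of 20 pDC, 3 of 12 progenitor and 9 of 12 monocyte genes. All 6 basophil and mast cell genes were at 0 in every cell, as were 8 of 11 neutrophil and granule genes (Elane, Ctsg and S100a8 among them), 6 of 10 B lineage genes (Cd79a and Pax5 among them) and 6 of 10 macrophage genes (C1qa, C1qb and C1qc among them). Summed over the list, neutrophil genes reached at most 664.16 TPM in a cell, against a median of 32756 in GMP. Platelet genes were at 0 in 5 of 6, erythroid genes in 3 of 8 and plasma cell genes in 4 of 6. Of the T, NK and ILC list, 6 of 12 genes were at 0 (Cd3g and Ncr1 among them). The 20 pDC genes summed to between 4.53 and 13521 TPM, with a median of 315.17, against 24982 in pre-pro-B cells. At least 3 of them were at 100 TPM in 11 cells, and Klk1 and Pacsin1 were at 0 in every cell. The 12 progenitor genes had a median sum of 172.03 TPM, against 2330 in LMPP. Cdk6, a kinase of the cell cycle, was at 100 TPM in 23 cells and Kit in 16. The 12 monocyte genes summed to between 796 and 18821 TPM, with a median of 4435, against 14799 in blood pre-DC. In 69 cells at least 3 of them were at 100 TPM. Those were mainly Ccr2, Lgals3, Ms4a6c and Fcer1g, which pre-DC also use, while F13a1 was detected in 0 cells.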

How the data were processed

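The authors made the deposited TPM values with RSEM 1.2.19 on GRCm38, per the submitters' processing notes. The aligner is not given in the sources used here. Reverse transcription used oligo(dT) primers on the chip, and cells with poor cDNA were dropped before library preparation, per the labels' protocols. TPM keep no read counts, so depth is unknown and its precision cannot be given; totals per cell lay between 997617 and 1000000. The table lists 43280 symbols, and no columns were identical.

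Levels are means over cells of log2(TPM + 1), and differences are SiglecH-Ly6C- minus the other gate. With 1 sample a gate, no test was run. Genes detected (10 TPM or more) in 20% of cells on either side were compared, and called at a difference of 2. The members and all 28 lists were chosen with earlier results of these data known. List members may be named, as may the 12 highest and 8 lowest genes against the other gates, 8 each way in other contrasts (10 TPM in 50% of cells) and up to 8 each way along the cDC1 minus cDC2 level. Left out were predicted, ribosomal, mitochondrial, sex-linked and gate-protein genes. Rab7b of the cDC1 list is not analysed here. Doublets were not called. Alternatives were other pseudocounts, scalings and filters, and dropping the 5% of each gate richest in genes. Coordinates are from GENCODE M21. Scripts were tested on simulated data (Python 3.11.15, pandas 2.3.3, scipy 1.17.1).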

Additional observations from a re-analysis of the deposited data

Results flagged for a closer look

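Tmem176b, which encodes a transmembrane protein, differed in opposite directions between SiglecH- and SiglecH+ pre-DC in the 2 Ly6C classes. It was lower in SiglecH- than in SiglecH+ cells among Ly6C- pre-DC, by a difference of -1.15 (SiglecH-Ly6C- minus SiglecH+Ly6C-), and higher among Ly6C+ pre-DC, by 1.81 (SiglecH-Ly6C+ minus SiglecH+Ly6C+). It was the only one of 74 cDC and lineage factor genes with opposite signs and a size of 1 or more in both. The difference between the 2 contrasts was not tested, since each gate is 1 sample. The SiglecH-Ly6C+ cells have a run of their own, so in the Ly6C+ contrast the gate cannot be told apart from the run. In the other contrast, 51 of the SiglecH+Ly6C- cells lie outside the run of the SiglecH-Ly6C- cells.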

How the results depend on the processing

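No paired analysis was possible because each gate is 1 sample and its cells carry no numbers that pair them across gates, and no replicate could be left out. No list median of 0.5 or more in size changed sign, though the monocyte median against the other gates (-0.12) was 0.49 on the log2 of mean TPM and 0.25 with library numbers up to 1000. Size factors, the same run alone, either block of library numbers, leaving out the 5% of cells with most genes and (chosen after seeing the data) the 2 cells with Siglech moved none beyond its spread over cells. The values below moved beyond it. With only detected genes kept, the medians were -1.26 (cDC2) and 2.56 (shared cDC) against the other gates, 3.24 (cDC1), -2.60 (cDC2) and -1.93 (pDC) against SiglecH-Ly6C+, 3.25 (cDC1), -0.89 (cDC2), 2.38 (shared) and 2.19 (monocyte) against SiglecH+Ly6C-, and 3.23 (cDC1), -2.07 (cDC2), 2.08 (shared) and -1.21 (pDC) against blood; fewer genes enter these medians. On the log2 of mean TPM they were 2.17 (shared) and -1.26 (pDC) against the other gates, and 2.60 (cDC1), 2.12 (shared) and -3.22 (pDC) against SiglecH+Ly6C-. A pseudocount of 0.1 gave a pDC median of -2.89 against the other gates, and -6.18 (pDC) and 5.36 (MHC class II) against SiglecH+Ly6C-. One of 10 gave pDC medians of -1.24 against the other gates and -2.55 against SiglecH+Ly6C-. Other medians moved by over 1.5 times but within that spread. With a pseudocount of 10, cDC1 medians were 0.55, 0.82 and 0.99 against SiglecH-Ly6C+, SiglecH+Ly6C- and blood, and shared cDC medians 0.49, 0.34, 0.51 and 0.42 against the other gates and the same 3. MHC class II medians were 2.17 against the other gates and 2.35 against SiglecH+Ly6C-, and the cDC2 median against SiglecH-Ly6C+ -0.39. On the log2 of mean TPM the monocyte medians were -0.94 against SiglecH-Ly6C+ and 0.34 against SiglecH+Ly6C-.

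The shares of genes called higher and lower, as a percent of the genes compared, also moved. With a pseudocount of 0.1 they were 5.46 and 8.05 against the other gates, 3.92 and 6.20 against SiglecH-Ly6C+, 3.23 and 10.6 against SiglecH+Ly6C-, and 24.8 and 6.38 against blood. With a pseudocount of 10 they were 0.785 and 0.332, 0.520 and 0.480, 0.670 and 0.917, and 1.80 and 0.628 against the same gates, and at a difference of 3 they were 0.803 and 0.471, 0.440 and 0.4997, 0.688 and 1.22, and 2.21 and 0.911. The log2 of mean TPM gave 4.85 higher against the other gates, 3.06 higher against SiglecH-Ly6C+, and 19.3 higher and 5.37 lower against blood, and a minimum of 2000 genes per cell gave 4.98 lower against blood. The correlation of cDC1 with cDC2 levels, -0.64 by Pearson, was -0.40 by Spearman; Pearson's r was -0.21 without the 8 cells with Cd209a, a cDC2 list member, a choice made after seeing the data. The cause of these shifts was not tested. TPM keep no depth, so absence of a transcript in a cell cannot be told from a missed one.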
